A study of Mus musculus with 35 samples.

Results

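The genes described here encode 8 chromatin factors of histone replacement, the exchange of histones for transition proteins and then protamines in the nucleus of the maturing spermatid. They were chosen by name (Brdt, Chd5, Rnf8, Kdm3a, Pygo2, Epc1, H1fnt and Hils1), and all 8 had a row in the count tables, which hold 24411 genes. RNA was sequenced from pachytene spermatocytes (Spc) and round spermatids (RS) of adult mice, with 3 Smg6-cKO and 3 control libraries per cell type, and from isolated chromatoid bodies (CBs), the RNA-rich cytoplasmic granules of round spermatids, with 3 cKO and 4 control libraries. The comparisons were cKO with control in each of the 3 sample types and RS with Spc in each genotype.

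The Smg6-cKO mice carried floxed Smg6 alleles on both chromosomes together with Ngn3Cre, a Cre transgene that is active in male germ cells, so that somatic cells of the testis keep the gene. Controls were littermates without the transgene, either Smg6(fx/fx);Ngn3Cre- or Smg6(fx/wt);Ngn3Cre-, and therefore carried floxed alleles too. The labels do not say which control had which genotype. Cells were separated by sedimentation through albumin, and by DAPI staining the paper reports that neither cell fraction was pure. The paper took the cells from several testes. Every CB library came from pooled mice by immunoprecipitation of DDX4. RNA of cells was selected for poly(A) tails, and RNA of CBs was total RNA, so that levels were compared between genotypes within the cells or within the CBs only.

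Testis-specific histone variants are built into the chromatin of meiotic and haploid germ cells. As spermatids elongate, after the round stage sampled here, histone H4 is hyperacetylated, histones are evicted and protamines compact the DNA. EPC1 belongs to the NuA4/TIP60 acetyltransferase complex, RNF8 is an E3 ubiquitin ligase that ubiquitinates histones, PYGO2 is a reader of methylated histone H3, and BRDT is a testis-specific bromodomain protein that binds acetylated histones. CHD5 is a nucleosome remodeler of spermatids, KDM3A (also JHDM2A) removes methyl groups from lysine 9 of histone H3 and is needed for the activation of Prm1 and Tnp1, and H1FNT (also H1T2) and HILS1 are linker histones of the spermatid.

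Depth was 38129415 to 49940226 counts on genes and transposable elements per library of Spc and RS and 3965541 to 16699210 per CB library. Levels are given as counts scaled to a common library total (CPM) after TMM scaling within the libraries of the comparison. Fold changes are log2 values of the edgeR quasi-likelihood fit ± a standard error (SE). This SE was derived from the test, as the size of the log2 value over the square root of its F statistic. A gene changed if the Benjamini-Hochberg adjusted p over all genes tested was at most 0.05. The scaling factors were 0.716 to 0.767 in control RS and 1.13 to 1.18 in cKO RS, and without them over all genes of the RS comparison the median log2 fold change was 0.73 in place of 0.11. Scaling by library size moved that median by 0.03 in Spc, by -0.14 in CBs, by -0.46 between the control cell types and by 0.14 between the cKO cell types. Smg6 itself measured 132 to 216 CPM in control RS and 175 to 188 CPM in cKO RS, with a log2 fold change of -0.01 ± 0.16 (adjusted p = 0.97). The count covers all exons of Smg6 while 1 exon was floxed, so it is no check of the labels, and reads per exon were not analysed here.

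**Figure D1:**
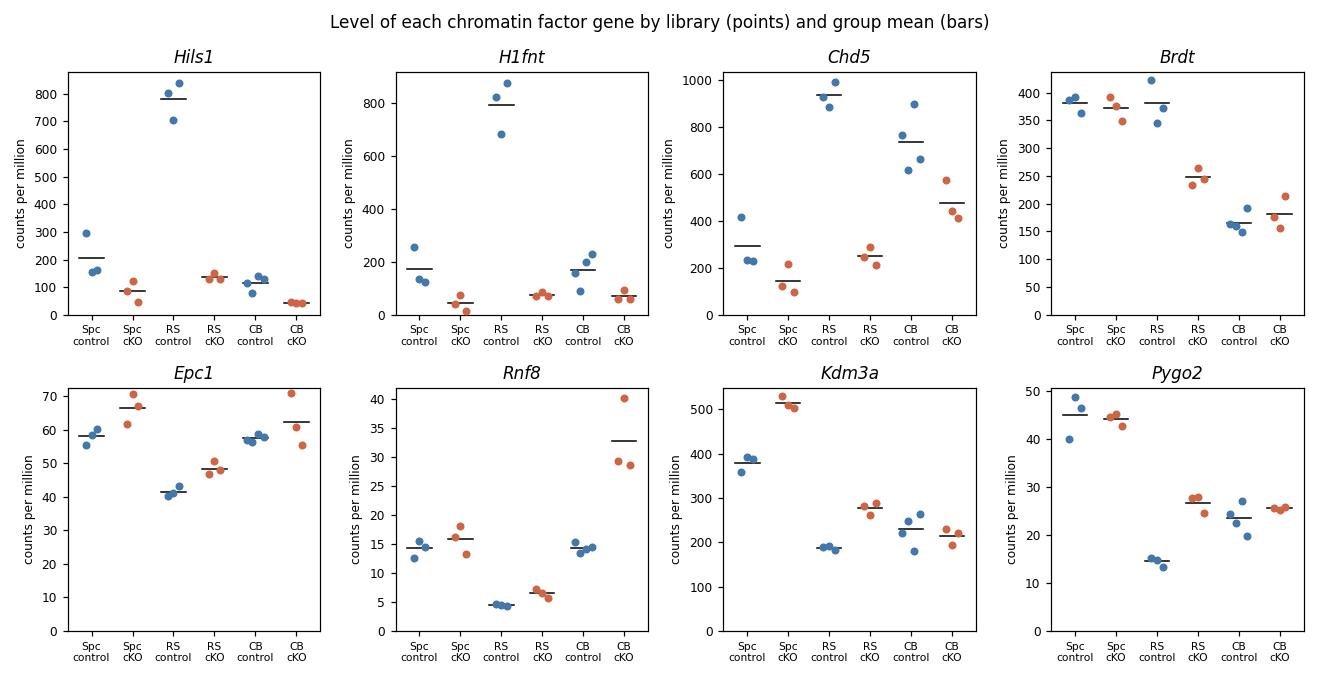
Level of each gene in CPM (vertical axes, linear from 0) in the 6 groups, with a point per library and a bar at the group mean (blue, control; orange, cKO; scaled within Spc, within RS and within CBs). Hils1, H1fnt and Chd5 reached 705, 682 and 887 CPM or more in the 3 control RS libraries and stayed at or under 151, 86.0 and 287 CPM in the 3 cKO RS libraries.

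In GRCm38, H1fnt lies at 98255986 to 98257293 on the minus strand of chromosome 15 and Hils1 at 94967593 to 94968456 on the plus strand of chromosome 11. Each has 1 annotated transcript with 1 exon, and the 3' untranslated region (3'UTR) measures 84 nt in H1fnt and 63 nt in Hils1. The other 6 genes are spliced. The 3'UTR measures 3326 nt in Chd5-202 and 3759 nt in Rnf8-201, but 663 nt in Kdm3a-201, and genes of either direction of change are found among the long ones. The exons of Rnf8 (chromosome 17, 29614790 to 29644991, plus strand) share 1542 nt on the same strand with the annotated read-through gene Gm28043, so that its counts are uncertain. The exons of Chd5 (chromosome 4, 152338651 to 152390194, plus strand) share 101 nt with the antisense gene Gm13645, and those of Epc1 share 322 nt with the antisense gene Gm28529. The counting was strand-specific. Epc1 also shares 83 nt on the same strand with Mir1893.

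Many spermatid genes are activated through the cAMP response element TGACGTCA, which is bound by CREM. RefSeq promoter windows (250 bases before to 50 after the start, GRCm38.p6) were searched for 7 of the 8 genes, that of Epc1 being not analysed here. The windows of 0 of these 7 genes held the whole element on either strand, against 2.03% of 27025 genes with such windows (1.79% of 32851 windows). Its core TGACG, which is part of the whole element, occurred in windows of 3 of the 7 genes, against 23% of all genes (20.8% of windows). These 3 sites are shown with their flanks because H1fnt and Chd5 are among the genes with large differences in RS. Each is printed along the strand of its gene with the core or its reverse complement in capitals, after the position of the core and the strand of the gene.
H1fnt (chr15:98257483-98257487, minus strand): catggttaTGACGattacact
Chd5 (chr4:152338619-152338623, plus strand): agactggaCGTCAcaatccgg
Pygo2 (chr3:89430075-89430079, plus strand): ggaggtggTGACGgaccccat
The core begins 180 bases before the start in H1fnt and 139 bases before it in Pygo2, and in Chd5 it lies on the opposite strand, beginning 32 bases before the start. The window of Hils1, which followed H1fnt and Chd5 closely in level, held no such core. A match of letters is not a measured binding site.

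The question in round spermatids was which of these genes differ once Smg6 is lost. In cKO RS the spermatid linker histone genes and the remodeler gene Chd5 were several-fold lower, Brdt was moderately lower, and Kdm3a, Pygo2, Rnf8 and Epc1 were higher. All 8 changed, 4 in each direction, where 72.7% of the 17492 genes tested changed (38.4% higher and 34.3% lower), and in all 8 the cKO and control libraries did not overlap, as in 76.9% of the genes tested. Past a log2 fold change of 1.5 were 3 of the 8 (26.4% of all genes), namely H1fnt, Hils1 and Chd5.

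H1fnt measured 822, 682 and 875 CPM in the 3 control RS libraries and 71.8, 86.0 and 72.2 CPM in the 3 cKO libraries. The lowest control was thus several times the highest cKO library. The log2 fold change was -3.37 ± 0.12, or 10.3-fold lower in cKO (adjusted p = 3.3e-07). Hils1 followed with 801, 705 and 839 CPM in control and 131, 151 and 128 CPM in cKO RS, a log2 fold change of -2.52 ± 0.09, or 5.73-fold lower (adjusted p = 4.0e-07). Per kilobase of exon, Hils1 and H1fnt had the highest mean levels of the 8 in control RS, with 905 and 598 CPM per kb. In cKO RS Hils1 still had the highest mean at 158 CPM per kb, while H1fnt (57.8), Kdm3a (54.7) and Brdt (49.3 CPM per kb) lay close together, and these neighbours were not tested.

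Chd5 measured 928, 887 and 991 CPM in control RS and 247, 287 and 214 CPM in cKO RS. This was a log2 fold change of -1.91 ± 0.11, or 3.75-fold lower (adjusted p = 2.4e-06). With library size in place of TMM the log2 fold changes of H1fnt, Hils1 and Chd5 were -2.75, -1.90 and -1.29, all with an adjusted p under 0.05, and that of Chd5 was no longer past 1.5 in size.

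Brdt measured 424, 346 and 372 CPM in control RS and 234, 264 and 245 CPM in cKO RS. The groups did not overlap, and the log2 fold change was -0.62 ± 0.09 (adjusted p = 0.00034). Scaled by library size, however, the difference was 0.00 in size (adjusted p = 0.98), and it was the only one of the 8 calls in RS that this scaling ended.

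Among the higher genes, Pygo2 measured 15.3, 14.8 and 13.4 CPM in control RS and 27.8, 27.9 and 24.7 CPM in cKO RS, a log2 fold change of 0.89 ± 0.11 (adjusted p = 0.00015). Kdm3a measured 190.4, 191 and 182 CPM in control and 281, 262 and 289.9 CPM in cKO RS, a log2 fold change of 0.56 ± 0.06 (adjusted p = 9.7e-05). Both genes kept a wide gap between the groups, at very different levels. Rnf8 was low, with 142 to 168 counts per control library, and measured 4.60, 4.53 and 4.29 CPM in control and 7.27, 6.58 and 5.71 CPM in cKO RS. Its log2 fold change was 0.54 ± 0.16 (adjusted p = 0.016), and without the control library numbered 3 the adjusted p was 0.061. Epc1 differed least, with 40.4, 41.3 and 43.1 CPM in control and 46.7, 50.6 and 47.9 CPM in cKO RS, a log2 fold change of 0.22 ± 0.08 (adjusted p = 0.032). The Epc1 call was lost with DESeq2 (adjusted p = 0.17), under the replicate block (0.067) and whenever a control library was left out (0.058 to 0.11). With library size in place of TMM all 4 differences were larger, at 1.503 for Pygo2, 1.18 for Kdm3a, 1.16 for Rnf8 and 0.84 for Epc1 (adjusted p = 1.1e-05, 2.1e-06, 0.00041 and 2.5e-05), so that Pygo2 was then past 1.5.

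In spermatocytes Kdm3a was higher in cKO and the linker histone genes were lower, while the other 5 genes did not pass. Of the 8 genes, 1 rose and 2 fell, where 28.2% of 17321 genes changed, and 1 of the 8 (H1fnt) passed a log2 fold change of 1.5, as did 8.52% of all genes. Kdm3a measured 358, 393 and 388 CPM in control Spc and 531, 511 and 504 CPM in cKO Spc, a log2 fold change of 0.44 ± 0.06 (adjusted p = 0.0056). The groups stood clearly apart, and this difference passed under every alternative.

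H1fnt measured 256, 136 and 124 CPM in control Spc and 42.1, 75.8 and 12.7 CPM in cKO Spc, a log2 fold change of -1.98 ± 0.60 (adjusted p = 0.047). Hils1 measured 296, 154 and 161 CPM in control and 87.5, 121 and 45.6 CPM in cKO Spc, a log2 fold change of -1.27 ± 0.39 (adjusted p = 0.049). Both were highest in the control library numbered 1 and lowest in the cKO library numbered 3. Chd5 had the same highest and lowest library, with 416, 232 and 228 CPM in control and 124, 216 and 97.3 CPM in cKO Spc, and its log2 fold change of -1.001 ± 0.35 did not pass (adjusted p = 0.068). Without cKO library 2 the log2 fold change of H1fnt was -2.64 (adjusted p = 0.025). The H1fnt call was lost without cKO library 1 or without any control library (adjusted p = 0.066 to 0.14), and the Hils1 call without cKO library 1 or 3 or any control library (0.054 to 0.13). For Chd5, DESeq2 gave an adjusted p of 0.020 and leaving out cKO library 2 gave 0.024.

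The remaining genes were nearly level in spermatocytes. The mean ± SD (n = 3) of Brdt was 381 ± 15.5 CPM in control and 372 ± 22.1 CPM in cKO Spc, with a log2 fold change of -0.03 ± 0.07 (adjusted p = 0.76). For Pygo2 it was -0.03 ± 0.11 (adjusted p = 0.86), for Rnf8 0.16 ± 0.16 (adjusted p = 0.49) and for Epc1 0.19 ± 0.09 (adjusted p = 0.14). Epc1 libraries did not overlap between the groups, at 55.3 to 60.4 CPM in control and 61.6 to 70.5 CPM in cKO, as in 47.7% of all genes tested.

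In CBs the question was whether the RNA held in the granule shows the same genes. Rnf8 was higher and Hils1, H1fnt and Chd5 were lower in cKO CBs. The 4 genes that changed compare with 36.6% of 14051 genes, and the 3 genes whose libraries did not overlap (Rnf8, Hils1 and Chd5) with 39.7%. Rnf8 measured 15.3, 13.5, 14.2 and 14.4 CPM in control and 29.4, 40.1 and 28.6 CPM in cKO CBs, so that every cKO library was well above every control. The log2 fold change was 1.17 ± 0.19, or 2.25-fold higher (adjusted p = 0.00056), from only 62 to 199 counts per library.

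Hils1 measured 116, 79.6, 140.2 and 131 CPM in control and 45.5, 41.0 and 43.4 CPM in cKO CBs, a log2 fold change of -1.43 ± 0.20 (adjusted p = 0.00026). H1fnt measured 159, 88.2, 200.3 and 231 CPM in control and 59.2, 92.1 and 60.7 CPM in cKO CBs, a log2 fold change of -1.27 ± 0.29 (adjusted p = 0.0042), and here 1 cKO library lay above 1 control library. Chd5 measured 767, 616, 898 and 663 CPM in control and 576, 442 and 414 CPM in cKO CBs. The log2 fold change of Chd5 was -0.62 ± 0.20 (adjusted p = 0.028), with a gap of 616 to 576 CPM between the groups. It no longer passed without the control library numbered 1 or 3 in its header or the cKO library numbered 3 or 4 (adjusted p = 0.070 to 0.093), or without the 2 control libraries whose headers carry MVH (0.10). Brdt (0.14 ± 0.17, adjusted p = 0.56), Epc1 (0.12 ± 0.16, 0.59), Pygo2 (0.13 ± 0.18, 0.60) and Kdm3a (-0.09 ± 0.18, 0.72) did not pass in CBs.

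**Figure D2:**
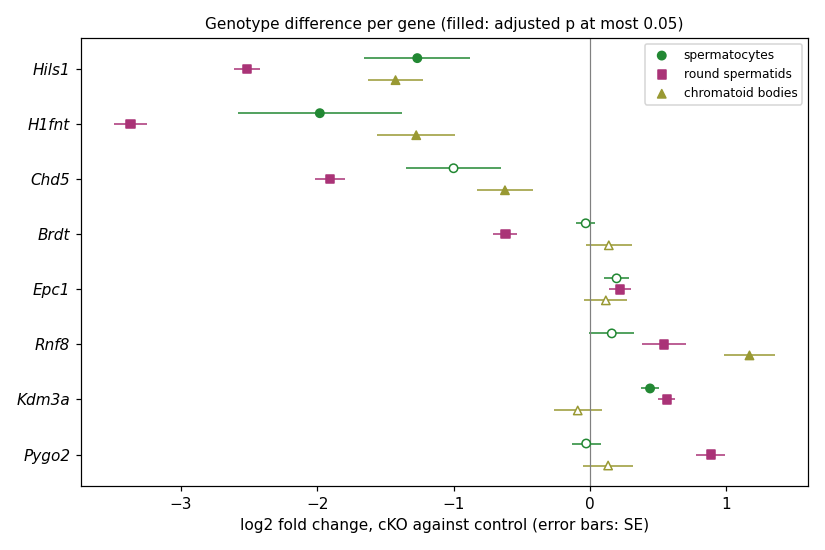
Log2 fold change of cKO against control (horizontal axis) per gene in Spc (circles), RS (squares) and CBs (triangles), with the derived SE as error bars and filled symbols for an adjusted p of at most 0.05. H1fnt, Hils1 and Chd5 lay below 0 in all 3 sample types, and Rnf8 reached 1.17 in CBs.

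Markers of other cells moved together with these differences, and in bulk samples fewer cells of a type and less RNA per cell cannot be told apart. The late spermatid markers (10 of 10 genes detected in every group, among them Odf1, Akap4 and Smcp) summed to 1.84% to 2.08% of gene counts in control RS and 0.449% to 0.483% in cKO RS. They summed to 0.497% to 0.795% in control and 0.258% to 0.350% in cKO Spc, and to 0.255% to 0.510% in control and 0.0735% to 0.152% in cKO CBs. The control Spc library with 0.795% was the one with the highest H1fnt, Hils1 and Chd5, and the cKO Spc library with 0.258% the one with the lowest.

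The 10 markers of spermatids in general fell with them in RS (9 lower and 1 higher), from 0.380% to 0.390% of gene counts in control to 0.162% to 0.185% in cKO. Other marker lists summed to more in cKO RS. The 12 spermatocyte markers, of which 7 rose and 3 fell, summed to 0.0875% to 0.0951% in control and 0.134% to 0.143% in cKO RS, the 10 macrophage markers to 0.00239% to 0.00323% and 0.0218% to 0.0356%, and the 8 Leydig markers to 0.000667% to 0.000762% and 0.00382% to 0.0404%. No gene of these 3 lists was at 0 in either group. Spermatogonial markers (7 of 8 higher) and erythroid markers (3 of 4 tested higher) rose in RS as well. Of the Sertoli markers, 10 of 12 fell in cKO Spc, where they summed to 0.0217% to 0.0358% against 0.0424% to 0.119% in control, and 10 of 11 tested rose in cKO RS, where they summed to 0.0142% to 0.0362% against 0.00563% to 0.00747%. The Leydig markers summed to 0.0659% to 0.142% in cKO Spc against 0.0137% to 0.0484% in control Spc, and to 0.00531% to 0.0433% in cKO CBs against 0.00191% to 0.00565% in control CBs. Of the macrophage markers, 9 rose and 1 fell in cKO Spc, where they summed to 0.00480% to 0.00703% against 0.00348% to 0.00482% in control, and 3 of 5 tested rose in cKO CBs, at 0.00179% to 0.00771% against 0.00141% to 0.00173%. In cKO CBs 8 of 10 spermatid markers fell, from 0.0612% to 0.103% in control to 0.0232% to 0.0378%, and 4 of 6 tested spermatogonial markers rose, from 0.00366% to 0.00444% to 0.00642% to 0.0117%. The part of these cells in the differences of the chromatin factor genes was not tested.

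**Figure D3:**
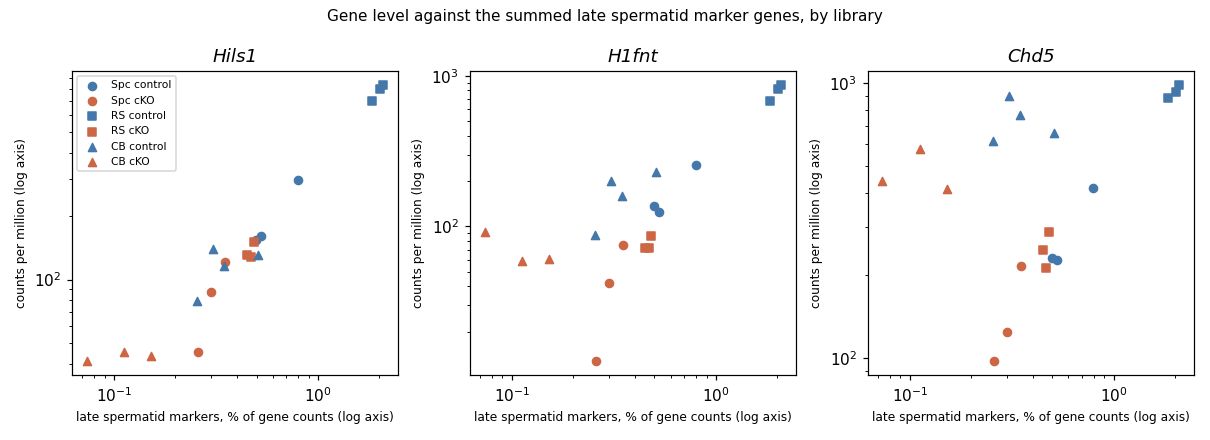
Level of Hils1, H1fnt and Chd5 in CPM (vertical log axes) against the summed late spermatid markers in percent of gene counts (horizontal log axes), with a point per library (blue, control; orange, cKO; circles, Spc; squares, RS; triangles, CBs). The 3 control RS libraries stood apart at 1.84% to 2.08%, and Hils1 and H1fnt had their highest levels there.

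Between the cell types of control mice, H1fnt, Hils1 and Chd5 rose from Spc to RS, while Rnf8, Pygo2, Kdm3a and Epc1 fell and Brdt did not pass. The 7 genes that changed compare with 75.9% of the 17046 genes tested (36.2% higher and 39.7% lower), the 4 past a log2 fold change of 1.5 with 34%, and the libraries of the cell types did not overlap for the same 7, against 80.6% of all genes. H1fnt had a mean of 145 ± 60.8 CPM (SD, n = 3) in Spc and 749 ± 85.5 CPM (n = 3) in RS, 5.17-fold higher (log2 2.37 ± 0.28, adjusted p = 0.0003). Hils1 had 172 ± 67.2 and 738 ± 56.1 CPM, 4.30-fold higher (log2 2.10 ± 0.26, adjusted p = 0.00032). Chd5 had 246 ± 89.8 and 884 ± 39.5 CPM, 3.59-fold higher (log2 1.85 ± 0.24, adjusted p = 0.00037). All 3 genes were thus several-fold higher in RS than in Spc of control mice. Markers of other cells differed between these fractions as well. All 12 Sertoli and all 8 Leydig markers were lower in RS, while of 10 macrophage markers 3 were higher and 1 lower. Their part in the differences was not tested.

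The genes that fell from Spc to RS did so by different amounts. Rnf8 went from 12.01 ± 1.33 to 4.23 ± 0.18 CPM (log2 -1.51 ± 0.14, adjusted p = 0.00016) and Pygo2 from 38.1 ± 3.99 to 13.7 ± 1.00 CPM (log2 -1.47 ± 0.11, adjusted p = 8.7e-05). Kdm3a went from 321 ± 17.2 to 178 ± 6.72 CPM (log2 -0.85 ± 0.08, adjusted p = 0.00013) and Epc1 from 49.0 ± 2.23 to 39.3 ± 1.201 CPM (log2 -0.32 ± 0.08, adjusted p = 0.0069). Brdt measured 325, 333 and 306 CPM in Spc and 399, 332 and 349 CPM in RS, with a log2 fold change of 0.16 ± 0.09 (adjusted p = 0.14) that was -0.29 (adjusted p = 0.015) with library size and 0.23 (adjusted p = 0.046) with DESeq2. Library size also gave -1.97 for Rnf8, -1.93 for Pygo2, -1.31 for Kdm3a and -0.78 for Epc1, and 1.93, 1.66 and 1.40 for H1fnt, Hils1 and Chd5. The 7 calls held, but of the genes past 1.5 in size Chd5 was lost and Pygo2 gained.

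In cKO mice, 7 of the 8 genes also changed between the cell types, where 45.4% of 17709 genes changed, and the libraries of all 8 did not overlap, as in 58.7% of genes, but the log2 differences were under 1.5 in size, a size that 7.06% of all genes passed. Chd5 was 1.91-fold higher in RS (log2 0.93 ± 0.27, adjusted p = 0.025) and Hils1 1.80-fold higher (0.85 ± 0.30, adjusted p = 0.049). With single libraries left out both stayed higher in RS (0.72 to 1.39 for Chd5 and 0.55 to 1.26 for Hils1), but the calls did not always hold. The Hils1 adjusted p was 0.070 to 0.11 without Spc library 1 or without any RS library of the cKO mice, and that of Chd5 was 0.059 to 0.090 without Spc library 1 or RS library 1 or 2. H1fnt measured 44.8, 79.2 and 13.7 CPM in cKO Spc and 83.6, 104 and 84.5 CPM in cKO RS, a log2 fold change of 0.98 ± 0.51 (adjusted p = 0.15) that passed under the replicate block (1.27, adjusted p = 0.021) and without Spc library 2 (1.71, 0.018).

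The falls from Spc to RS remained in the cKO mice for the 4 genes that fell in control, with log2 fold changes of -1.13 ± 0.17 for Rnf8 (adjusted p = 0.0018), -0.57 ± 0.10 for Pygo2 (0.0027), -0.74 ± 0.06 for Kdm3a (0.00019) and -0.30 ± 0.09 for Epc1 (0.027). The Epc1 call was lost with library size (adjusted p = 0.15), with no count filter (0.081), with transcript counts summed per gene (0.058) and without any cKO library of Spc or RS other than RS library 2 (0.058 to 0.18). Brdt fell as well, from 418, 393 and 376 CPM to 272, 318 and 287 CPM, a log2 fold change of -0.44 ± 0.08 (adjusted p = 0.0036) that was -0.30 with library size and still passed. Between the cKO fractions all 10 macrophage and all 4 tested erythroid markers were higher in RS, 7 of 8 Leydig markers were lower and 0 of 12 Sertoli markers changed. The part of these cells was not tested.

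**Figure D4:**
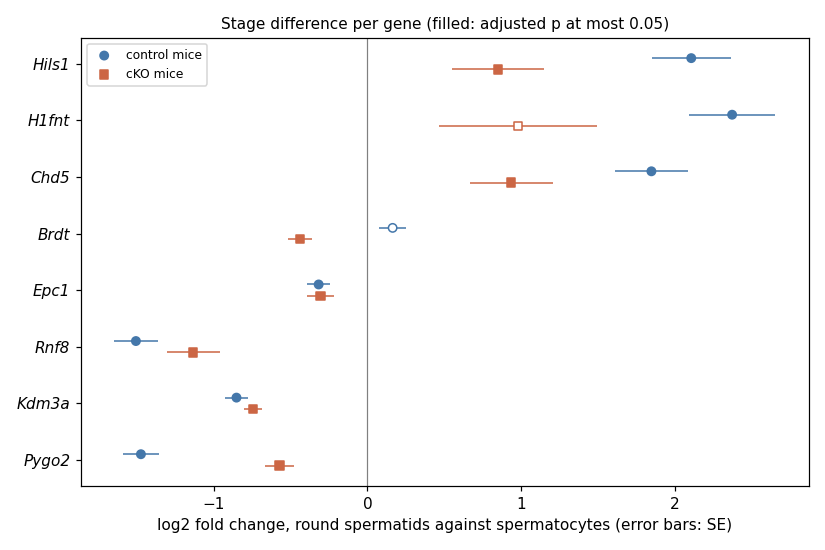
Log2 fold change of RS against Spc (horizontal axis) per gene in control (circles) and cKO mice (squares), with the derived SE as error bars and filled symbols for an adjusted p of at most 0.05. H1fnt, Hils1 and Chd5 lay at 1.85 to 2.37 in control and at 0.85 to 0.98 in cKO mice.

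Whether the genotype difference itself differed between RS and Spc was tested by the interaction of genotype and cell type over all 12 libraries. It passed for Brdt, Pygo2 and Hils1, and 43.1% of 18171 genes passed (24.1% lower in RS). The cKO difference was lower in RS than in Spc by a log2 value of -0.71 ± 0.12 for Brdt (adjusted p = 0.0015) and -1.38 ± 0.43 for Hils1 (adjusted p = 0.025), and higher in RS by 0.79 ± 0.15 for Pygo2 (adjusted p = 0.0020). With library size these values were 0.00 in size for Brdt (adjusted p = 0.99), -0.67 for Hils1 (0.20) and 1.504 for Pygo2 (6.4e-05), so that only Pygo2 passed under both scalings. Library size also gave a call to Rnf8 (0.98, adjusted p = 0.0044), Kdm3a (0.71, 0.00031) and Epc1 (0.61, 0.0017), which had 0.26, 0.00 in size and -0.09 with TMM (adjusted p = 0.34, 0.99 and 0.49). Chd5 had -1.03 ± 0.39 (adjusted p = 0.052) and H1fnt -1.51 ± 0.66 (adjusted p = 0.082). Chd5 passed with DESeq2 (adjusted p = 0.047), under the replicate block (0.019) and without Spc cKO library 3, Spc control library 1 or RS cKO library 2 (0.0086 to 0.049), and H1fnt passed without Spc cKO library 3 or Spc control library 1 (0.0032 and 0.037). The Hils1 call was lost without Spc cKO library 1 or 2, Spc control library 2 or 3, RS cKO library 1 or 3 or RS control library 3 (adjusted p = 0.053 to 0.063).

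The deposited transcript tables divide a read among the annotated transcripts it matches, so that transcripts of a gene share counts. Of 47 annotated transcripts of the 8 genes, 31 had a row. In RS 18 of these rose and 10 fell, where 74.9% of 57133 transcripts changed (11 rose with DESeq2, where 37585 changed). All 5 Chd5 transcripts fell (log2 -1.83 to -1.80) and all 6 Pygo2 transcripts rose (0.74 to 1.27). The tested transcripts of these genes thus moved in the direction of the gene.

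Brdt differed among its transcripts. Brdt-202, a short protein-coding transcript of 7 exons with a 3'UTR of 300 nt, measured 131 ± 20.6 CPM (SD, n = 3) in control and 70.5 ± 7.25 CPM (n = 3) in cKO RS (log2 -0.90 ± 0.13, adjusted p = 0.00051). Brdt-201, the full-length transcript of 19 exons with a 3'UTR of 1532 nt, went from 194 ± 14.1 to 147 ± 5.96 CPM (-0.40 ± 0.07, adjusted p = 0.0014), and the non-coding Brdt-204 measured 23.8 ± 0.97 and 24.4 ± 0.73 CPM (0.04 ± 0.06, adjusted p = 0.62). With library size Brdt-202 still fell (-0.36, adjusted p = 0.022), while Brdt-201 turned to 0.13 (0.089) and Brdt-204 rose (0.57, 0.0002).

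As a share of all Brdt transcript counts, a measure that does not depend on the scaling of libraries, Brdt-202 took 38.0%, 34.4% and 34.8% in control RS and 26.8%, 29.5% and 27.8% in cKO RS. It took 29.7%, 31.99% and 29.6% in control and 26.0%, 27.5% and 24.6% in cKO Spc. In CBs it took 19.9%, 19.6%, 18.2% and 23.1% in control and 14.1%, 15.6% and 12.4% in cKO. The share was lower in every cKO library than in every control library of the same sample type, a pattern of no overlap found for 34.4% of transcripts with a sister transcript in RS, 22.4% in Spc and 18.9% in CBs. The exact two-sided permutation test gave p = 0.029 in CBs, the smallest p of that design, and p = 0.1 in RS and in Spc, the smallest that 3 against 3 libraries allow. Adjusted over the 12 tests of 4 transcripts in 3 sample types, the exact p was 0.11 in CBs. Brdt-201 took a larger share in cKO, with 53.3% ± 1.45 in control and 58.6% ± 0.88 in cKO RS (SD, n = 3) and 66.9% ± 1.84 (n = 4) and 72.4% ± 0.91 (n = 3) in CBs.

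**Figure D5:**
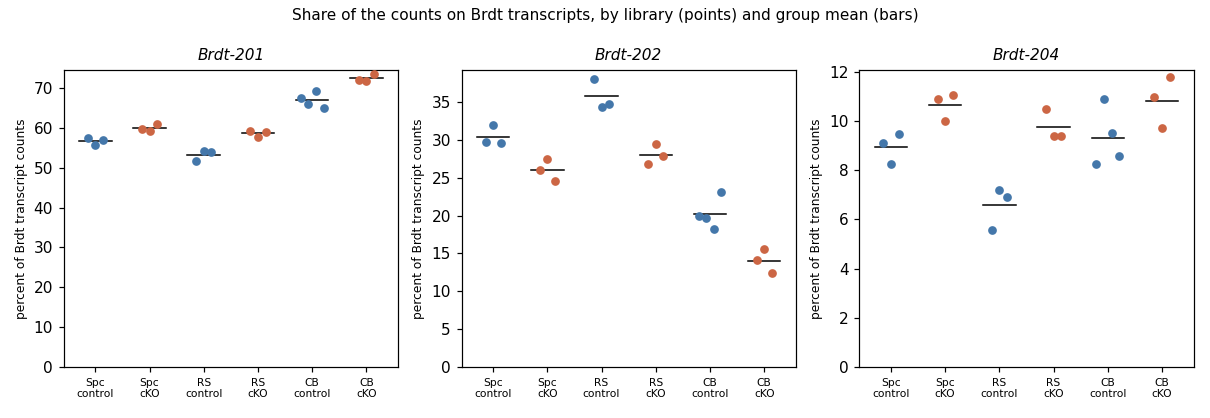
Share of all counts on Brdt transcripts, in percent (vertical axes, linear from 0), for Brdt-201, Brdt-202 and Brdt-204 in the 6 groups, with a point per library and a bar at the group mean (blue, control; orange, cKO). The share of Brdt-202 lay at 34.4% to 38.0% in control RS and at 26.8% to 29.5% in cKO RS, and for Brdt-202 the groups did not overlap in any of the 3 sample types.

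For Rnf8, 8 transcripts were tested in RS, of which 7 rose, and 6 in CBs, of which 5 rose, where 35.9% of 30623 transcripts changed. With library size 1 of these 5, Rnf8-205, passed in CBs (1.32, adjusted p = 0.010). The coding Rnf8-201 went from 4.69 ± 0.472 CPM (n = 4) to 12.1 ± 2.77 CPM (n = 3) in CBs (log2 1.32 ± 0.20, adjusted p = 0.0011, and 0.88 with adjusted p = 0.099 with library size), and Rnf8-206, annotated with the nonsense-mediated decay biotype, from 4.92 ± 0.235 to 11.9 ± 2.93 CPM (1.23 ± 0.19, adjusted p = 0.0014, and 0.79 with adjusted p = 0.15 with library size). Reads in exons that both hold are divided between them, so these are not separate measurements. The read-through transcript of Gm28043 rose too, by 0.97 ± 0.06 in RS (adjusted p = 1.2e-05) and 0.86 ± 0.15 in CBs (adjusted p = 0.0022, and 0.43 with adjusted p = 0.497 with library size). It had more counts in every RS library (434 to 1320) than all Rnf8 transcripts together (237 to 590). Its part in the Rnf8 difference was not tested. In CBs the Chd5 transcripts differed in size, with -0.89 ± 0.20 for the non-coding Chd5-203 (adjusted p = 0.0067), -0.48 ± 0.20 for the coding Chd5-202 (0.089) and 0.00 ± 0.36 in size for the short Chd5-204 (0.995).

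The other genes of histone replacement were taken from 12 lists of 77 genes, of which 76 had a row. In RS 25 of the 76 rose, 33 fell and 18 did not pass, where 72.7% of all genes changed (38.4% higher and 34.3% lower), with a median log2 fold change of -0.07 against 0.11 for all genes. With library size 43 rose and 19 fell, where 13470 of 17492 genes changed and 76.0% of these were higher. In Spc 10 rose and 14 fell, where 28.2% of all genes changed. In CBs 19 rose and 18 fell of 75 tested, where 36.6% of all genes changed. With library size 6 rose and 18 fell there, where 4160 of 14051 genes changed and 38.1% of these were higher.

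The genes of the end products of the pathway were far lower. All 5 transition protein and protamine genes fell in Spc, RS and CBs, with median log2 fold changes of -3.22, -4.73 and -2.37. Prm2 went from 8910.4 ± 1415 to 217 ± 57.5 CPM in RS (-5.36 ± 0.24, adjusted p = 7.5e-07), Prm1 from 3375 ± 699 to 101 ± 32.9 CPM (-5.06 ± 0.30, adjusted p = 2.7e-06) and Tnp1 from 2525 ± 620 to 95.3 ± 17.0 CPM (-4.73 ± 0.23, adjusted p = 9.8e-07). Both kinase genes of late spermatids fell in RS, with -4.75 ± 0.08 for Tssk6 (adjusted p = 6.5e-08) and -2.76 ± 0.15 for Camk4 (1.9e-06). Among the histone variant genes 6 of 12 fell and 1 rose in RS. H2afb1, which encodes a short H2A variant, had -4.06 ± 0.15 (adjusted p = 3.8e-07) and Hmgb4, a testis HMG-box gene, -3.57 ± 0.15 (5.6e-07), whereas H1f0, a replacement linker histone, had 1.41 ± 0.20 (0.00033).

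The partners of the 8 proteins did not share a direction, and several counts moved with the scaling. With library size in RS, 6 genes rose and 4 fell among the acetyltransferase and NuA4/TIP60 genes, 3 and 3 among the RNF8 partners and 5 and 4 among the histone variants. The counts were 5 and 0 among the deacetylases and 6 and 1 among the genes of histone lysine methylation. Over all genes 13470 of 17492 changed with that scaling, 76.0% of them higher. With TMM, of 15 genes of histone acetyltransferases and NuA4/TIP60, 3 rose and 9 fell in RS. Kat5, the catalytic subunit of the complex of EPC1, had 1.68 ± 0.06 (adjusted p = 3.3e-07) and its scaffold Trrap 1.45 ± 0.17 (0.00012), while Cdyl had -2.80 ± 0.13 (7.6e-07). Of 8 genes of RNF8 partners, 3 rose and 5 fell, including Ube2n, the conjugating enzyme used by RNF8, with -1.84 ± 0.07 (adjusted p = 4.9e-07). Of the 6 CHD and other remodelers, 5 rose in RS, where 38.4% of all genes rose, led by Ino80, the ATPase of a remodeling complex, with 19.7 ± 1.70 CPM in control and 126 ± 11.54 CPM in cKO RS (2.68 ± 0.10, adjusted p = 4.4e-07).

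Brd3, a bromodomain reader gene like Brdt, fell in RS (-0.56 ± 0.07, adjusted p = 0.00017), a difference of 0.06 with library size. Of the 7 genes of histone lysine methylation, 2 rose and 2 fell in RS, with 0.85 ± 0.09 for Setdb1 (adjusted p = 6.5e-05) and -1.30 ± 0.17 for Suv39h2 (0.00025). Of the 4 partners of PYGO2, 3 rose, among them Ctnnb1, the gene of beta-catenin (0.81 ± 0.11, adjusted p = 0.00029). Of the 6 deacetylase genes, 3 rose and 2 fell, with 1.57 ± 0.18 for Hdac6 (adjusted p = 0.00012). All 4 genes of strand break and poly(ADP-ribose) enzymes rose, where 38.4% of all genes did, with 1.31 ± 0.15 for Parg (adjusted p = 9.8e-05). Psme4, which encodes the PA200 activator of the proteasome, fell by 0.71 on the log2 scale (SE 0.07, adjusted p = 6.3e-05), a difference of -0.09 with library size.

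Over the 12 Spc and RS libraries, H1fnt, Hils1 and Chd5 followed each other, with Pearson's r of their log2 CPM of 0.97 to 0.99, and Kdm3a, Pygo2 and Rnf8 followed each other with r of 0.91 to 0.95. Between the former and the latter genes r was -0.94 to -0.71. Brdt stood apart from both, with r of -0.37 to 0.54 with the other 7. The libraries fall into 4 groups, which set these values, and no test is given. Over the 13062 genes that averaged 100 or more counts per library, the genes most like Hils1 were Usp50 and Tssk2 (both with r of 0.999), those most like H1fnt Actrt2 and Sh3rf2 (0.999), and those most like Chd5 Ttll10 and Tbata (0.998). For Brdt they were Trmt5 (0.976) and 1700001G11Rik (0.975), for Epc1 Dync1li2 (0.970), for Rnf8 Pogk (0.993) and Acsl3 (0.991), for Kdm3a Mrpl37 (0.996) and Prr14 (0.995), and for Pygo2 Zfp606 and Tnpo3 (0.998).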

How the data were processed

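Counts of 19 long RNA libraries were analysed, and 16 small RNA libraries were not used here. Reads were trimmed with cutadapt 2.8 (submitters' processing notes) and mapped to GRCm38 with STAR. The authors deposited gene and element counts made with TEtranscripts in reverse-stranded mode, and expected counts per transcript from featureCounts 2.0.1, with reads divided among transcripts. Headers of the RS gene columns carry trim2 and those of the Spc columns trim, which was not explained in the sources used here. CB columns show the genotype but not which sample.

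Comparisons used edgeR 4.0.16 in R 4.3.3 (TMM, quasi-likelihood, two-sided, Benjamini-Hochberg over all features) on genes with 10 counts in at least 3 libraries, or transcripts with 20, expected counts being rounded. Replicates are libraries as labelled. No pair of libraries of a group agreed within counting noise. Alternatives included DESeq2 1.42.0. Figures were drawn with matplotlib 3.10.9 in Python 3.11.15. Positions and transcripts came from GENCODE vM21 on GRCm38, promoters and exon lengths from RefSeq. Named genes were the 8 members, at most 3 changed genes per list and comparison by size, Smg6, the 2 most correlated genes per member and overlapping genes. Some genes that this rule names are not reported here. The members and lists were chosen with earlier results of these data known.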

Additional observations from a re-analysis of the deposited data

Results flagged for a closer look

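The genotype difference of 3 genes differed between the cell types by the interaction term of the edgeR fit. The log2 difference between cKO and control in RS minus that in Spc was -0.71 for Brdt, 0.79 for Pygo2 and -1.38 for Hils1, with edgeR adjusted p of 0.0015, 0.0020 and 0.025. With library size in place of TMM, Pygo2 passed (1.504, adjusted p = 6.4e-05), while Brdt (0.00 in size, 0.99) and Hils1 (-0.67, 0.20) did not, and Rnf8, Kdm3a and Epc1 passed that had not with TMM (0.98, 0.71 and 0.61). Brdt was lower in 3 of 3 cKO RS libraries than in all control libraries, while Spc libraries overlapped. Pygo2 was higher in 3 of 3 cKO RS libraries, with overlap in Spc. Hils1 was lower in 3 of 3 cKO libraries of both cell types. Among 4 control CB libraries no level of the 8 genes stood apart by Dixon's criterion.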

How the results depend on the processing

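Of 648 values of single genes under the alternatives, 569 kept their direction and their side of the threshold, 46 lost the call, 16 gained it and 17 reversed; the causes were not tested. Reversed values were 0.078 for Brdt and 0.079 for Pygo2 in Spc with all 12 libraries in 1 fit, and with library size -0.0095 for Brdt and -0.011 for Epc1 in CBs, -0.29 for Brdt between control cell types and 0.61 for the Epc1 interaction. The Kdm3a interaction was 0.00 in size (-0.00032) under the replicate block. With single libraries left out, values ranged from -0.068 to 0.034 for Brdt and -0.092 to 0.031 for Pygo2 in Spc, -0.039 to 0.21 for Epc1 in CBs and -0.031 to 0.054 for the Kdm3a interaction.

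Counts of the 8 genes moved as follows. In Spc 2 rose with all 12 libraries in 1 fit. Between cKO cell types 1 rose with genes and elements together. For the interaction, library size gave 4 higher and 0 lower. Of the transcripts, 7 fell in Spc with DESeq2 and 3 with library size, 11 rose in RS with DESeq2, 1 (Rnf8-205) rose in CBs with library size where 5 Rnf8 transcripts had and 6 fell there with no count filter. With single libraries left out, 0 to 3 genes fell in Spc, 2 to 4 rose in RS, 0 to 3 rose between cKO cell types, the interaction was lower for 1 to 4, and 0 to 7 transcripts fell in Spc.

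Library size moved the share of higher genes among those changed from 52.8% to 76.0% in RS, 49.6% to 38.1% in CBs, 47.7% to 32.2% between control and 41.7% to 55.0% between cKO cell types, and 44.2% to 93.7% for the interaction. It moved that of transcripts from 51.9% to 74.5% in RS and 49.5% to 12.3% in CBs, and 1 fit of 12 libraries that of Spc genes from 49.8% to 60.0%. In CBs 5136 genes changed, and 3064 without the 2 control libraries with MVH in the header, an alternative chosen after seeing the data, as were transcript counts summed per gene for the cell type comparisons. In Spc 4879 genes and 16474 transcripts changed, but 2042 and 8065 without cKO library 1, 2706 and 8302 without cKO library 3, and 2058 and 7110 without control library 3. Of CB transcripts 10986 changed, and 6191 with library size.

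Deviations of same-numbered libraries correlated at -0.09 to 0.26 between genotypes in Spc, -0.14 to 0.10 in RS, -0.18 to -0.14 between control and -0.02 to 0.56 between cKO cell types. In the main fits the numbers were not taken to pair libraries. Between cKO cell types, however, libraries 2 and 3 (0.56 and 0.30) matched their own number best, and library 1 (-0.02) did not. With replicates as a block 9641 genes changed there in place of 8038. A pairing of these libraries thus stays possible, and the main fit between cKO cell types does not use it. Under the replicate block the Epc1 call in RS was lost (0.22, adjusted p = 0.067) and those of H1fnt between cKO cell types (1.27, 0.021) and the Chd5 interaction (-1.01, 0.019) were gained. No paired analysis was possible for CBs because their columns carry no sample numbers of the labels. Some genes had few counts, such as Rnf8 with 62 to 199 in CB libraries, and the effect of depth was not tested.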
